A study of Mus musculus with 39 samples.

Results

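The Hox genes of AB1-HA tumours were taken as the rows of the gene count table whose symbol was Hox followed by a cluster letter (a to d) and a number, which gave 39 genes of 39676. The AB1-HA line was derived from a mouse mesothelioma, a cancer of the lining of the chest or abdomen, and its tumours grew under the skin of BALB/c mice, which the methods give as females and males aged 8 to 10 weeks. RNA of whole resected tumours was sequenced, so each value mixes line and host cells. The question addressed was what tretinoin and immune checkpoint therapy (ICT), alone and together, changed in the tumour.

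The PBS group (10 tumours) received vehicle. The Tretinoin group (9 tumours) received tretinoin, which is all-trans retinoic acid, at 5 mg/kg daily for 5 days from day 4 by the deposited labels, while the study's own text does not give 1 dose and number of doses throughout. The ICT group (10 tumours) received 100 µg each of antibodies to CTLA-4 and PD-L1, starting on day 7. The methods give the PD-L1 antibody in repeated doses. Each mouse gave 1 tumour, resected on day 9. The Tretinoin+ICT group (10 tumours) received both, and the labels split it into 6 responders and 4 non-responders by the fate of a second tumour left in the mouse. All tumours came from 1 cell line. Tumours were named by number, and the first digit (1 to 8) defined series that lie within 1 treatment each, so series and treatment cannot be told apart.

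Hox genes encode homeodomain transcription factors that lie in 4 clusters and set position along the body axis. Genes of like number in different clusters are paralogs. Low numbers lie at the 3′ end of a cluster and act towards the head, and high numbers act towards the tail and the ends of the limbs. Retinoic acid is a classic inducer of the 3′ genes in the embryo, acting through retinoic acid receptors on DNA. Adult cells of connective tissue and many tumours keep a positional set of Hox genes.

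In GRCm38 the 11 HoxA genes lay on chromosome 6, the 10 HoxB genes on chromosome 11 between 96194316 and 96368256, the 9 HoxC genes on chromosome 15 between 102921103 and 103036852, and the 9 HoxD genes on chromosome 2 between 74668310 and 74765142. Each cluster was transcribed from 1 strand, and the clusters spanned 96.8 to 173.9 kb. All 39 were annotated as protein coding. The RefSeq promoter table (GRCm38.p6) held windows for 22 of the 39 genes, 24 windows in all. The 250 bases before the start are printed for Hoxb4 and Hoxc4, which rose with tretinoin, and for Hoxd8 and Hoxd13, which fell. Hoxb3 and Hoxc6, which also rose, had no window. The RefSeq starts of Hoxc4 and Hoxd13 differ from the gene starts of GENCODE M21. The Hoxc4 window lies inside the GENCODE gene, which runs from 103018934 to 103036852. Capitals mark AGGTCA (the hexamer bound by retinoic acid receptors), TATAAA (the TATA box) and GGGCGG (the GC box), read on both strands.
Hoxb4, chr11:96318017-96318266, plus strand: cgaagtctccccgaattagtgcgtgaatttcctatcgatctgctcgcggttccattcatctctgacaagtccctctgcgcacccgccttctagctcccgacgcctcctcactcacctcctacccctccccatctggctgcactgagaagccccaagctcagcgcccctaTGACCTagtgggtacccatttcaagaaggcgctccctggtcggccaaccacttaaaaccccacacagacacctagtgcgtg
Hoxc4, chr15:103034145-103034394, plus strand: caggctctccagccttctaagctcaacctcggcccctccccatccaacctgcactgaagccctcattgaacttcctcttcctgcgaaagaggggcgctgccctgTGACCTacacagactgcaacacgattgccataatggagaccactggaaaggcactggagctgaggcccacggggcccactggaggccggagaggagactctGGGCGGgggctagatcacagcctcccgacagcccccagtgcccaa
Hoxd8, chr2:74704365-74704614, plus strand: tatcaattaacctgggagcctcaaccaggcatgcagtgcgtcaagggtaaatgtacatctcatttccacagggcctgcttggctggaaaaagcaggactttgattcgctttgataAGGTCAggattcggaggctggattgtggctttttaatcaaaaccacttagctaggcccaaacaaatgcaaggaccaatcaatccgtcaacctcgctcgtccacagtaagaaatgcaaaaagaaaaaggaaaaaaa
Hoxd13, chr2:74667975-74668224, plus strand: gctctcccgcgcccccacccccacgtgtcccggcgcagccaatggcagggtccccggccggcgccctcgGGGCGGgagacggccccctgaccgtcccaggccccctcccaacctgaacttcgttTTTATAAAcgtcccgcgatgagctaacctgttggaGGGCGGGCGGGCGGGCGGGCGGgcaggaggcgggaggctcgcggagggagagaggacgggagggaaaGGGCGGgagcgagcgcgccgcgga

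Hoxb4, Hoxc4 and Hoxd8 each held 1 AGGTCA hexamer, and the Hoxd13 window held none. Among all 32851 windows of this length 14% held AGGTCA, and 6 of the 24 Hox windows did: Hoxb4, Hoxc4, Hoxd3, Hoxd4, Hoxd8 and Hoxd10. GGGCGG stood in 10 of the 24 Hox windows and in 32.7% of all windows. TATAAA stood in 4 Hox windows and in 12.4% of all windows. Direct repeats spaced by 2 or 5 bases, arrangements bound by retinoic acid receptors, were searched with the hexamer AGGTCA, its variant AGTTCA, the variant GGGTCA and the variant GGTTCA. They were found in 0 Hox windows, and in 0.174% and 0.0883% of all windows. The median GC content was 58.6% in Hox windows and 52.4% in all windows. These matches are descriptions of letters in a short window.

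Total counts ran from 14033046 to 37951183 per tumour with a median of 18548168. Of 39 Hox genes, 31 passed the filter on low counts in the comparison of tretinoin and PBS. Hoxa13, Hoxb1, Hoxb13, Hoxc11, Hoxc12, Hoxc13, Hoxd1 and Hoxd12 did not, and in ICT against PBS neither did Hoxb2. Levels are given as FPKM, counts scaled to exon length and to library size, so that levels can be compared between genes. Mesothelial markers were largely absent: Upk3b, Lrrn4, Wt1, Calb2 and Krt19 averaged below 0.3 FPKM over the 39 tumours, while Pdpn averaged 40.4 FPKM and Cdh2 11 FPKM. The summed markers of leukocytes reached 230 to 417 FPKM in PBS and 345 to 820 FPKM in Tretinoin+ICT tumours, and 6 of the 7 endothelial marker genes in the table were above 1 FPKM on average. Fibroblast markers were abundant, with Col1a1 at 327 FPKM, Dpt at 84.8 FPKM and Pdgfra at 21.4 FPKM on average, so Hox RNA of the line and of host cells cannot be told apart. The mesothelial markers Msln, Krt8 and Krt18 were not analysed here.

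In PBS tumours the strongest Hox gene was Hoxd13, at 37.2 ± 2.3 FPKM (SD, n = 10), a gene of limb ends and the genital tubercle. Hoxd8 followed at 27.6 ± 1.7 FPKM and did not overlap with it. Hoxc10 (17.0 ± 1.6 FPKM) and Hoxd9 (13.8 ± 1.3 FPKM) overlapped with each other and came next. The 4 genes together made up 46.3% of the summed Hox level. A mean of at least 1 FPKM was reached by 27 of the 39 genes.

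From the fifth place down, neighbours in the order of levels overlapped in range almost throughout. Hoxb6, Hoxb7 and Hoxd10 stood at 11.3, 10.8 and 10.7 FPKM. Hoxc6, Hoxa10, Hoxa11, Hoxa9 and Hoxa7 stood between 8.61 and 5.59 FPKM. Hoxd11, Hoxc4, Hoxb5, Hoxd4, Hoxc9 and Hoxb4 stood between 4.61 and 3.30 FPKM. Hoxa5, Hoxa6, Hoxb3, Hoxc8 and Hoxc5 lay between 2.99 and 1.91 FPKM, and Hoxb8, Hoxd3, Hoxa3 and Hoxa2 between 1.46 and 1.24 FPKM.

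**Figure D1:**
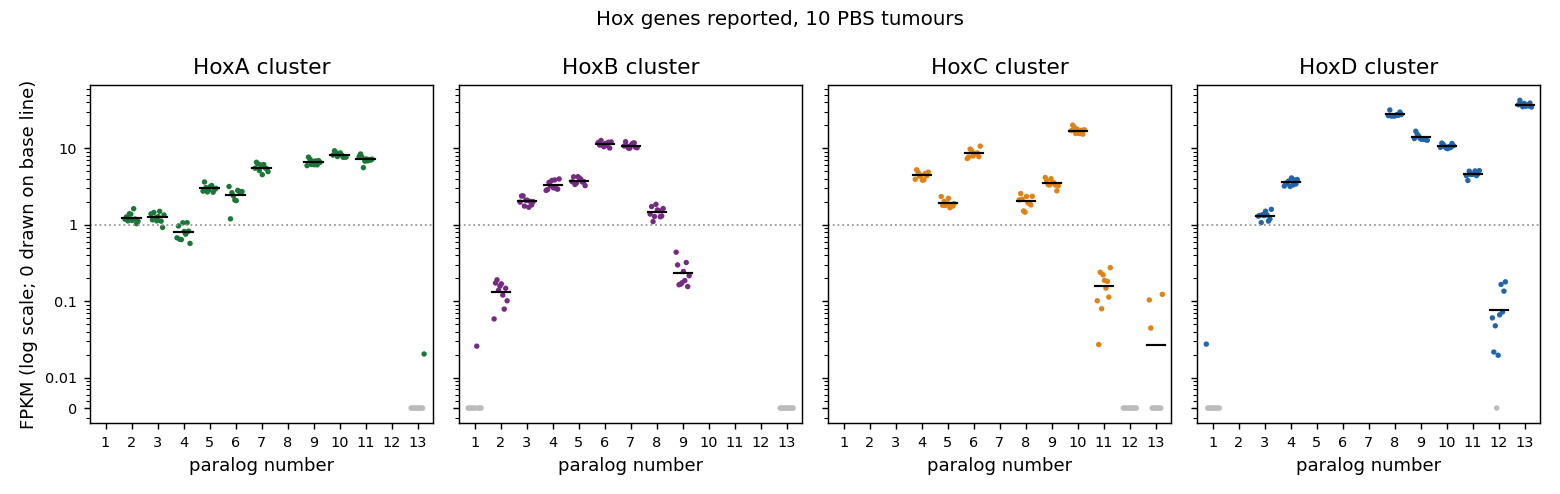
Level of each reported Hox gene in the 10 PBS tumours (points, FPKM on a log scale with 0 drawn on the base line) by cluster and paralog number, with the mean as a bar where it can be drawn and 1 FPKM as a dotted line. Hoxd13 lies highest at 37.2 FPKM and the neighbour Hoxd12 near the bottom at 0.0767 FPKM.

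Between the highly expressed Hoxd13 and Hoxd11, the gene Hoxd12 stood at 0.0767 FPKM in PBS tumours, with 108 counts over the 39 tumours. Among the genes below 1 FPKM in PBS were Hoxa4 (0.800 FPKM), Hoxb9 (0.236 FPKM), Hoxc11 (0.157 FPKM) and Hoxb2 (0.133 FPKM). Hoxa13, Hoxb1, Hoxc12 and Hoxd1 had 2, 6, 2 and 3 counts in all 39 tumours, each count in a different tumour. Hoxb13 had 0 counts in 39 tumours, which allows a level of up to 0.00186 FPKM pooled over them, the level of 3 counts. The ends of the clusters differed, since number 13 was the top gene of HoxD and was at or near 0 in HoxA and HoxB.

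By position, the posterior genes (numbers 9 to 13) made up 52.9 ± 1.1% of the summed Hox level in PBS tumours, the central genes (4 to 8) 43.9 ± 1.0% and the anterior genes (1 to 3) 3.18 ± 0.20% (SD, n = 10). HoxD alone held 47.9% of it, and HoxA, HoxB and HoxC 17.9%, 16% and 18.2%. In Tretinoin tumours HoxD held 42.3 ± 1.9% and HoxB 18.8 ± 0.7% (SD, n = 9), against 47.9 ± 1.2% and 16 ± 0.6% in PBS tumours (n = 10), and the ranges of the groups did not overlap in either cluster.

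A list of 12 known retinoid targets, of which 9 were in the count table, was examined. It was chosen with earlier results of these data known, so it is no independent check of exposure. In tretinoin against PBS, 6 of the 8 tested rose and 0 fell by edgeR at an adjusted p below 0.05. Of all genes 11.5% rose and 8.95% fell. The retinoic acid hydroxylase Cyp26b1 rose by a log2 fold change of 5.19 ± 0.13 (SE) and the retinal reductase Dhrs3 by 2.66 ± 0.07. The list also moved without tretinoin. In ICT against PBS, Cyp26b1 (1.08 ± 0.24), Tgm2 (0.86 ± 0.18) and Dhrs3 (0.40 ± 0.10) rose and Crabp2 fell by 0.31 ± 0.08.

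Hoxb3, Hoxb4, Hoxc4, Hoxc6 and Hoxa10 were higher and Hoxd8, Hoxd9 and Hoxd13 lower in Tretinoin than in PBS tumours. By edgeR, 5 of 31 Hox genes (16.1%) rose at an adjusted p below 0.05, where 11.5% of all 14340 genes rose. Another 3 (9.68%) fell, a share near the 8.95% of all genes that fell. None of the 31 passed with a log2 fold change of 1 or more in either direction, a size reached by 1.62% of all genes. The median log2 fold change of the 31 was 0.12, and over all genes 0.0079.

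Hoxb3 and Hoxb4, neighbours in HoxB that help pattern the hindbrain and upper trunk, and act in blood stem cells, showed the largest of these changes. Hoxb3 (ENSMUSG00000048763.11, 11, 96323326 to 96347930) was at 1.69, 2.01 and 2.38 FPKM (lowest, median, highest) in PBS and at 2.85, 3.33 and 4.81 FPKM in Tretinoin tumours. Hoxb4 (ENSMUSG00000038692.8, 11, 96318267 to 96321638) was at 2.81, 3.14 and 3.97 FPKM in PBS and at 4.60, 5.36 and 6.67 FPKM in Tretinoin. In both genes all 9 Tretinoin tumours lay above all 10 PBS tumours, a separation upwards that 1.36% of all genes had. The log2 fold change was 0.82 ± 0.10 (SE) for Hoxb3, edgeR adjusted p = 4.87e-06. Hoxb4 had 0.73 ± 0.08 (edgeR adjusted p = 3.39e-06). Both passed in each of the 4 comparisons of 1 Tretinoin series with 1 PBS series, in which 3, 6, 2 and 2 Hox genes passed in all. Hoxc6, Hoxa10 and Hoxd9 passed in none of these, and with series 7 no Hox gene passed as lower.

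Of the Hoxb3 exon bases, 52.9% also lie in the antisense gene Hoxb3os, and whether the counting used strand was not given in the sources used here. How reads in the shared bases entered either count is therefore not known, which makes the FPKM of Hoxb3 less certain. Hoxb3os rose by 0.89 ± 0.16 (edgeR adjusted p = 0.000625). Hoxb4 shares no exon base with another annotated gene.

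Hoxc4, a paralog of Hoxb4, was at 3.82, 4.4 and 5.22 FPKM in PBS and 4.82, 5.49 and 7.07 FPKM in Tretinoin tumours. The groups overlapped little, with 8 of 9 Tretinoin tumours above all PBS tumours. It rose by 0.40 ± 0.08 (SE), edgeR adjusted p = 0.00141. Hoxc6, a gene of the chest segments, was at 7.34, 8.53 and 10.7 FPKM in PBS and 8.91, 10.3 and 13.1 FPKM in Tretinoin tumours, and rose by 0.28 ± 0.08 (edgeR adjusted p = 0.0141). Hoxa10, a gene of the uterus and lower spine, was at 7.61, 8.14 and 9.26 FPKM and then 7.22, 9.54 and 10.7 FPKM, and rose by 0.20 ± 0.06 (edgeR adjusted p = 0.0295). The groups overlapped in Hoxc6 and Hoxa10.

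The 3 genes that fell were among the 4 most abundant in PBS tumours. Hoxd8 was at 26.3, 26.9 and 31.6 FPKM in PBS and at 20.3, 24.2 and 25.8 FPKM in Tretinoin tumours, without overlap, which 0.6% of all genes had downwards. It fell by 0.22 ± 0.05 on the log2 scale, edgeR adjusted p = 0.00371. Hoxd13 was at 34.5, 36.9 and 42.3 FPKM in PBS and 28.1, 32.5 and 34.7 FPKM in Tretinoin tumours, overlapping in 2 of 9, and fell by 0.19 ± 0.04, edgeR adjusted p = 0.00481. Hoxd9 was at 12.7, 13.3 and 16.7 FPKM in PBS and 11.3, 11.9 and 14 FPKM in Tretinoin tumours, and fell by 0.19 ± 0.05, edgeR adjusted p = 0.0169. These 3 falls and the rises of Hoxc6 and Hoxa10 did not pass when all 39 tumours entered 1 fit, which left Hoxb3, Hoxb4, Hoxc4 and, in addition, Hoxa2. Host markers moved with tretinoin too, with 3 of 6 macrophage, 3 of 7 endothelial, 1 of 5 leukocyte and 1 of 8 fibroblast markers higher and 0 of these lower against PBS, and their part in the Hox changes was not tested. In a bulk tumour, fewer cells of a type and less RNA per cell cannot be told apart.

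**Figure D2:**
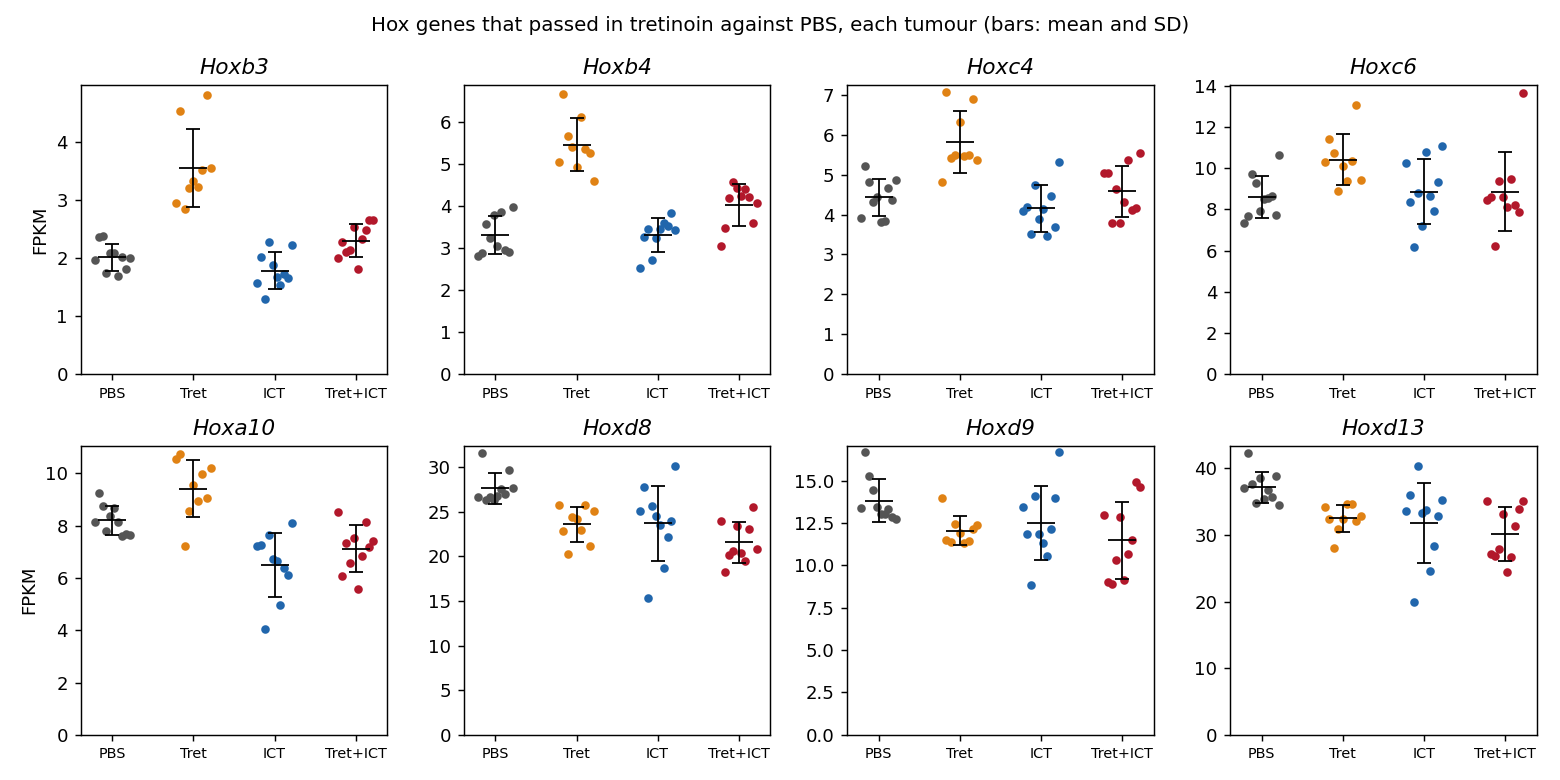
Each tumour's FPKM (points; bars are mean and SD) of the 8 Hox genes that passed in tretinoin against PBS, by treatment. All 9 Tretinoin tumours lie above all PBS tumours for Hoxb3 and Hoxb4, and below all of them for Hoxd8.

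Seen by position, 6 of 6 anterior Hox genes tested had a log2 fold change above 0 with tretinoin, with a median of 0.37. The medians were 0.16 over 15 central genes and -0.03 over 10 posterior genes. Across the 31 genes Spearman's rho of paralog number and log2 fold change was -0.586, a description over genes that share tumours and depth. Hoxa2 (0.40) and Hoxa3 (0.34) had values near those of Hoxc4 but adjusted p of 0.0513 and 0.0676. Hoxb2 (0.61) and Hoxb9 (0.54) rested on few reads and had adjusted p of 0.129 and 0.121. The genes Hoxa4, Hoxa5, Hoxa6, Hoxa7, Hoxa9, Hoxa11, Hoxb5, Hoxb6, Hoxb7, Hoxb8, Hoxc5, Hoxc8, Hoxc9, Hoxc10, Hoxd3, Hoxd4, Hoxd10 and Hoxd11, did not pass, with log2 fold changes between -0.20 and 0.23. Of the exon bases of Hoxd3 and Hoxd4, 62.9% and 52.3% lie in other genes, each other among them, so their counts are uncertain.

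The effect of tretinoin was next measured in mice that also received ICT. In tretinoin+ICT against ICT, edgeR passed 0 of 31 at an adjusted p below 0.05, where 1.99% of all 14202 genes passed. The share of all genes that also changed by 1 or more on the log2 scale was 0.394%. At an unadjusted p below 0.05 there were 4 of 31 Hox genes (12.9%), below the 18.1% of all genes. DESeq2 passed 2, Hoxb3 and Hoxb4, and 3.63% of all genes. Hoxb3 was at 1.29, 1.69 and 2.28 FPKM in ICT and 1.81, 2.31 and 2.66 FPKM in Tretinoin+ICT tumours, a difference of 0.36 ± 0.10 on the log2 scale (edgeR adjusted p = 0.0635). Hoxb4 was at 2.52, 3.43 and 3.84 FPKM in ICT and 3.04, 4.2 and 4.57 FPKM in Tretinoin+ICT tumours, with 0.28 ± 0.09 (edgeR adjusted p = 0.0981). Of the 10 Tretinoin+ICT tumours, 6 lay above every ICT tumour in Hoxb3 and 7 in Hoxb4. Hoxb8 had the highest value, 0.45 ± 0.15 (edgeR adjusted p = 0.135).

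The 2 tretinoin comparisons share no tumours. Of the 31 Hox genes, 24 had the same sign in both, which is 77.4%, beside 70.6% of all 14046 genes tested in both. Pearson's r of the log2 fold changes was 0.727 across the Hox genes and 0.621 across all genes, as a description.

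The difference between the 2 tretinoin effects was tested as an interaction. By edgeR 0 of 31 Hox genes passed, where 0.307% of all 14977 genes passed, with 3 at an unadjusted p below 0.05, where 9.45% of all genes were. DESeq2 passed 1, Hoxb4, and 0.532% of all genes. Hoxb4 had an interaction of -0.44 ± 0.12 on the log2 scale (edgeR adjusted p = 0.11) and Hoxb3 of -0.45 ± 0.14 (edgeR adjusted p = 0.202). Among the 8 retinoid targets, Cyp26b1 (-2.36 ± 0.29) and Dhrs3 (-1.18 ± 0.13) passed in the same fit. With ICT their response to tretinoin was 2.83 ± 0.26 and 1.48 ± 0.11, and 6 of the 8 targets rose. The part of the weaker retinoid response in the Hox values was not tested.

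**Figure D3:**
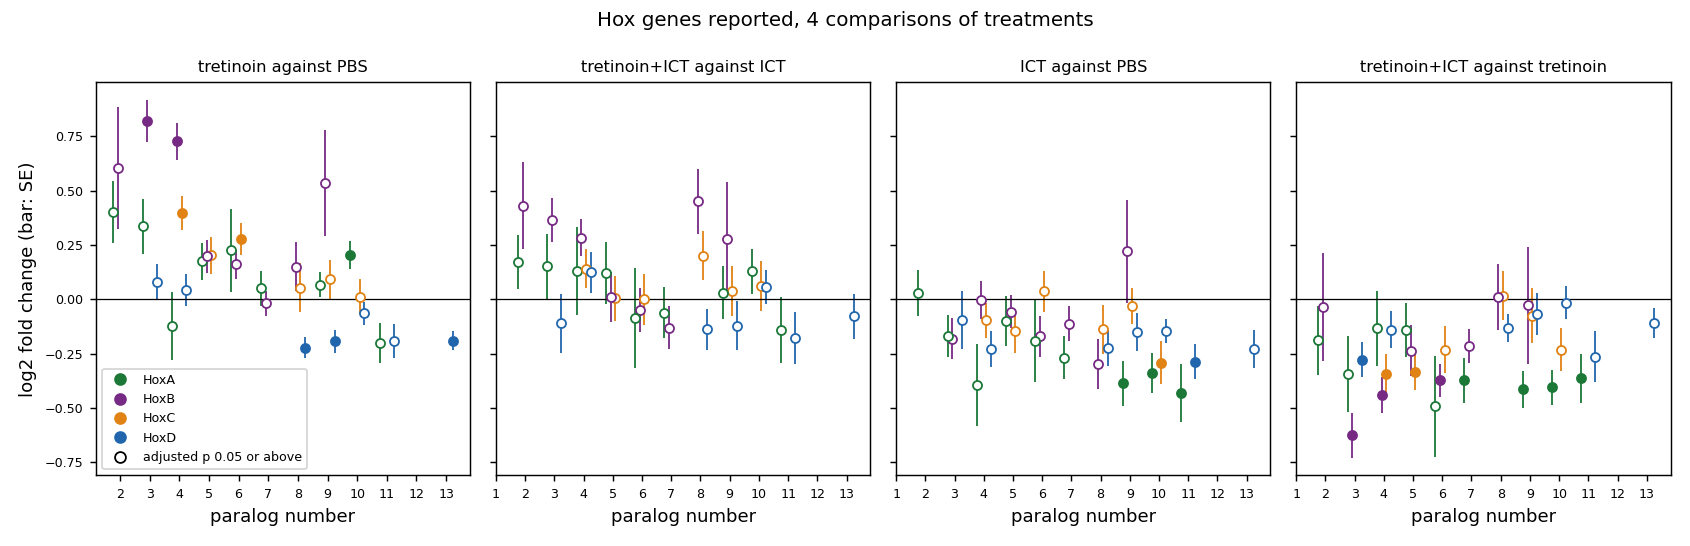
Log2 fold change of each reported Hox gene tested (points; bars are SE) by paralog number and cluster in the 4 comparisons of treatments, filled where the edgeR adjusted p was below 0.05. Hoxb3 and Hoxb4 lie highest in tretinoin against PBS at 0.82 and 0.73, and most genes lie below 0 in both comparisons with ICT added.

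Hoxa9, Hoxa10, Hoxa11, Hoxc10 and Hoxd11 were lower in ICT than in PBS tumours. In ICT against PBS, 5 of 30 fell at an edgeR adjusted p below 0.05, where 7.15% of all 14155 genes fell, and 0 rose, where 14.1% of all genes rose. With the fold change minimum 2.35% of all genes and no Hox gene passed. The 5 genes have numbers 9 to 11, which act in the lower trunk and limbs, but central genes passed as well with DESeq2 (Hoxa7 and Hoxd4) and with all 39 tumours in 1 fit (Hoxd4 and Hoxd8). Of the 30, 27 had a log2 fold change below 0. The median was -0.16, beside -0.02 over all genes.

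Hoxa9 was at 5.92, 6.63 and 7.64 FPKM in PBS and 3.06, 5.18 and 6.53 FPKM in ICT tumours, and fell by 0.39 ± 0.10 on the log2 scale (edgeR adjusted p = 0.0134). Of the 10 ICT tumours, 7 lay below every PBS tumour. Hoxa10 was at 4.03, 6.67 and 8.09 FPKM in ICT tumours, with 8 below every PBS tumour, and fell by 0.34 ± 0.09 (edgeR adjusted p = 0.0132). Hoxa11 was at 5.57, 7.16 and 8.4 FPKM in PBS and 2.55, 5.59 and 7.13 FPKM in ICT tumours, and fell by 0.43 ± 0.13 (edgeR adjusted p = 0.0255). Of its exon bases 35% also lie in the antisense gene Hoxa11os. The groups overlapped in each of the 5 genes. Hoxc10 was at 15.3, 17.1 and 20.1 FPKM in PBS and 8.1, 14.4 and 17.2 FPKM in ICT tumours, and fell by 0.29 ± 0.10 (edgeR adjusted p = 0.0389). Hoxd11 was at 3.78, 4.59 and 5.09 FPKM in PBS and 2.77, 3.95 and 4.59 FPKM in ICT tumours, and fell by 0.29 ± 0.08 (edgeR adjusted p = 0.0179). Between single series, 3 of the 5 passed in series 8 against 5, and 0 in each of the other three pairs. Without the 6 tumours that had 5 or more Hoxc13 counts, chosen after values were seen, 1 gene (Hoxa9) passed.

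Tretinoin+ICT against tretinoin shares the Tretinoin tumours with tretinoin against PBS. Here 10 of 31 Hox genes fell, where 9.01% of all 14393 genes fell, and 0 rose, where 12.3% rose. With the fold change minimum 2.08% of all genes and no Hox gene passed. Hoxb3 fell by 0.63 ± 0.10 (edgeR adjusted p = 0.000654) and Hoxb4 by 0.44 ± 0.08 (edgeR adjusted p = 0.00206), and in both all 10 Tretinoin+ICT tumours lay below all 9 Tretinoin tumours, which 0.403% of all genes did downwards. Series 2 and series 4 against series 7 passed 5 and 2 Hox genes, Hoxb3 and Hoxb6 among both, and neither passed any against series 3. Hoxa9 fell by 0.41 ± 0.09, Hoxa10 by 0.40 ± 0.08, Hoxb6 by 0.37 ± 0.08, Hoxa7 by 0.37 ± 0.10 and Hoxa11 by 0.36 ± 0.11, with edgeR adjusted p from 0.00301 to 0.0279. Hoxb6, a gene of the trunk, was at 10.3, 12.2 and 15.4 FPKM in Tretinoin and 7.89, 9.84 and 11.1 FPKM in Tretinoin+ICT tumours, where 8 of 10 lay below every Tretinoin tumour. Hoxc4 fell by 0.34 ± 0.09, Hoxc5 by 0.33 ± 0.09 and Hoxd3 by 0.28 ± 0.08, with edgeR adjusted p from 0.0136 to 0.0218. Of the retinoid targets 5 of 8 fell and 1 rose in the same comparison. Of the 31 Hox genes 29 had a log2 fold change below 0. The median was -0.23, and over all genes -0.0044.

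Markers of host cells also moved in both comparisons that add ICT. In ICT against PBS 4 of the 5 leukocyte markers and 6 of the 6 macrophage markers tested rose. In tretinoin+ICT against tretinoin all 5 leukocyte markers and 3 of 6 macrophage markers rose. Of 7 endothelial markers 2 fell in each of these comparisons. Of 3 mesothelioma and mesothelial markers tested 2 rose and 0 fell in each. In both, 0 of 6 T cell, 0 of 5 adipocyte and 0 of 8 skeletal muscle markers passed. The summed leukocyte markers ran from 230 to 417 FPKM in PBS, 231 to 573 in Tretinoin, 243 to 782 in ICT and 345 to 820 FPKM in Tretinoin+ICT tumours. The summed Hox level had medians of 204, 211, 186 and 179 FPKM in the same order. Their part in the Hox results was not tested. Fibroblast markers also moved, with 1 of 8 lower in ICT against PBS and 3 of 8 in tretinoin+ICT against tretinoin. Tumours 14, 33, 63 and 82 had leukocyte sums above the rest of their own groups (PBS, Tretinoin and ICT). A setting without these tumours was chosen after the values were seen. In ICT against PBS it passed the 5 genes. The falls were 0.28 for Hoxa9, 0.24 for Hoxa10, 0.31 for Hoxa11, 0.20 for Hoxc10 and 0.25 for Hoxd11. That setting gave 12 Hox genes lower in tretinoin+ICT against tretinoin. It left out no Tretinoin+ICT tumour, so there it removed tumour 33 alone. The part of leukocyte content was not tested in either comparison.

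The summed Hox level was also set against the summed leukocyte markers within each group. Pearson's r was -0.514 in PBS, -0.888 in Tretinoin, -0.961 in ICT and -0.817 in Tretinoin+ICT tumours. Spearman's rho was -0.503, -0.700, -0.842 and -0.745. Leaving out the 2 tumours farthest from the median of the markers, r was -0.353, -0.622, -0.792 and -0.789, and rho was -0.024, -0.357, -0.69 and -0.643, so rho in PBS and Tretinoin rested in large part on those tumours. These are descriptions, and both sums share a tumour's library size. The share of Hoxb3 and Hoxb4 in the Hox sum was 2.58 ± 0.22% in PBS (n = 10), 4.35 ± 0.46% in Tretinoin (n = 9), 2.88 ± 0.50% in ICT (n = 10) and 3.57 ± 0.44% in Tretinoin+ICT tumours (n = 10).

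**Figure D4:**
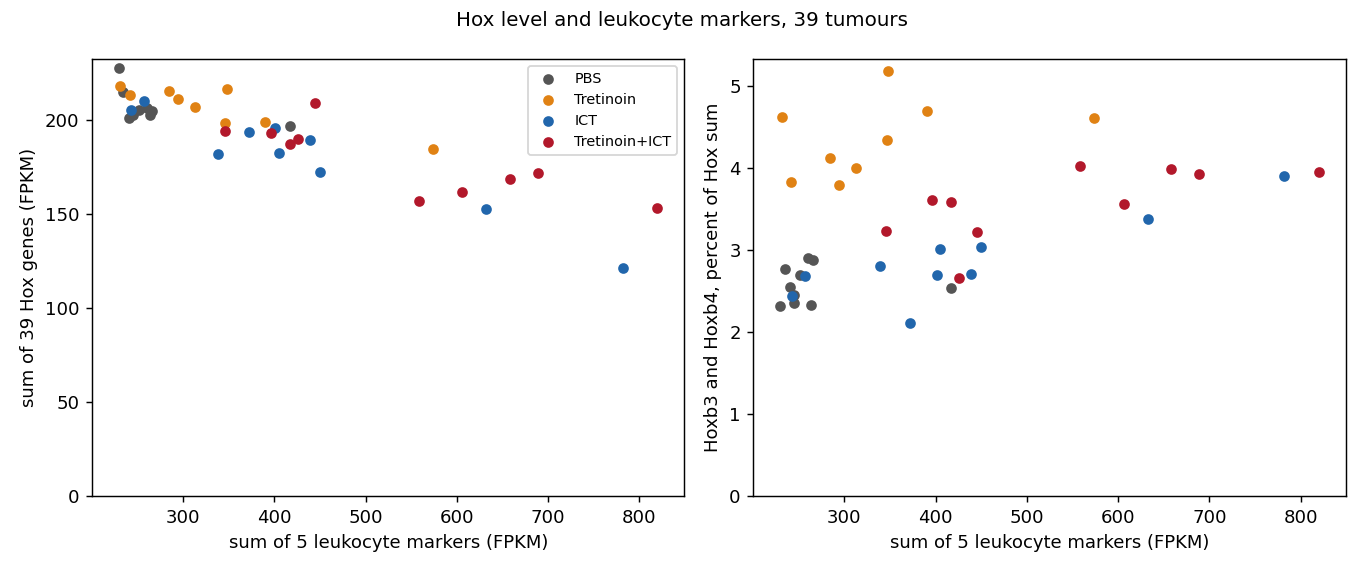
Summed FPKM of the 39 Hox genes (left) and the share of Hoxb3 and Hoxb4 in it (right, percent) against the summed FPKM of 5 leukocyte markers, 1 point per tumour, coloured by treatment. The Hox sum is highest, 227 FPKM, in the tumour with the lowest marker sum and lowest, 121 FPKM, in an ICT tumour with a marker sum of 782 FPKM, and the 9 Tretinoin tumours hold shares of at least 3.79%, above every PBS tumour.

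Within Tretinoin+ICT, 6 responders were compared with 4 non-responders. By edgeR 0 of 31 Hox genes passed an adjusted p of 0.05, and 0.0% of all 14604 genes did. At an unadjusted p below 0.05 there were 2, where 22.6% of all genes were. DESeq2 passed 1, Hoxa11, and 9.55% of all genes. Hoxa11 was at 3.78, 3.87, 4.28, 4.38, 4.61 and 4.67 FPKM in responders and at 4.79, 5.65, 5.95 and 6.41 FPKM in non-responders, and the groups did not overlap. Without overlap, 3.18% of all genes were lower and 2.22% higher in responders, and of the 31 Hox genes 1 was lower (3.23%), a share near that of all genes. Its log2 fold change was -0.41 ± 0.11 (edgeR adjusted p = 0.0896). Leaving out replicate 8, tumour 43, the responder with the highest Hoxa11 (4.67 FPKM), gave an edgeR adjusted p of 0.03. With any other tumour left out no Hox gene passed.

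Partners and regulators of Hox genes were examined alongside, to be read against the 11.5% of all genes that rose and the 8.95% that fell with tretinoin. Of the 8 TALE homeodomain cofactors tested, which bind DNA with Hox proteins, 1 rose with tretinoin, Meis1, by 0.36 ± 0.09 (edgeR adjusted p = 0.0085). Meis2 (0.30, adjusted p = 0.0518), Pbx2 (0.13, adjusted p = 0.063) and Pknox1 (0.11, adjusted p = 0.154) came next. Of 27 Polycomb and Trithorax genes, which hold Hox clusters silent or active, 4 rose and 5 fell with tretinoin. Phc2 rose by 0.26 and Ring1 by 0.20, while Bmi1 fell by 0.19 and Ezh2 by 0.17. Of 8 non-coding RNA genes of the clusters, Hoxb3os and Hoxaas2 (0.49 ± 0.12, edgeR adjusted p = 0.00812) rose and 0 fell, with Hotair at 0.30 and Hoxb5os at 0.24. Of 15 protein-coding neighbours outside the clusters 1 rose, Calcoco1 by 0.26, and 3 fell, Mtx2 by 0.26, Cbx5 by 0.21 and Atp5g3 by 0.24. In tretinoin+ICT against tretinoin 2 of 8 cofactors and 2 of 8 non-coding RNA genes fell, Hoxb5os by 0.73 and Hoxb3os by 0.64. In tretinoin+ICT against ICT edgeR passed 0 of the cofactor, non-coding, neighbour and Polycomb and Trithorax genes.

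Hoxc13, a regulator of hair keratins, stood apart from the other HoxC genes. It had counts in 14 of 39 tumours, and 134 of its 149 counts came from 6 tumours. The highest were 56 counts and 44 counts, in Tretinoin+ICT tumours, and 18 counts in ICT tumour 82. The hair-follicle keratin Krt25, chosen after values were seen, was at 4.15 to 51.4 FPKM in the 6 tumours with 5 or more Hoxc13 counts. Its median was 0.0 FPKM in the 25 tumours without a Hoxc13 count, where the highest was 3.48 FPKM. Tretinoin tumours 31, 71 and 75, with 2, 2 and 3 Hoxc13 counts, had Krt25 at 7.06, 6.88 and 10.4 FPKM. The cut at 5 counts therefore did not separate tumours by Krt25. Summed skin markers were at 23.7, 14.7 and 12.1 FPKM in tumours 22, 42 and 82. Without the 6 tumours 7 Hox genes passed in tretinoin against PBS, Hoxa10 no longer among them, and 6 in tretinoin+ICT against tretinoin. In tretinoin against PBS this left out PBS tumours 11 and 55 and no Tretinoin tumour.

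**Figure D5:**
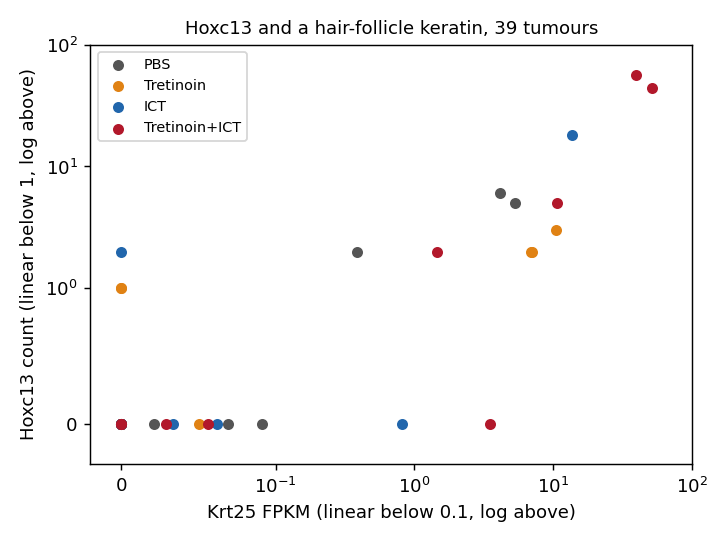
Hoxc13 counts against Krt25 FPKM, 1 point per tumour, coloured by treatment, on axes that are linear near 0 and logarithmic above. The 6 tumours with 5 or more Hoxc13 counts have Krt25 between 4.15 and 51.4 FPKM. Tretinoin tumours 31, 71 and 75, with 2 or 3 counts, lie in the same range.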

How the data were processed

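RNA of 39 AB1-HA tumours was read by the authors as single-end reads of 100 bases. Per the labels and methods, bcl2fastq 2.20.0.422 and HISAT2 2.0.4 were used, with SummariseOverlaps for gene counts. The genome is named mm11 in the methods, and the counting mode and use of strand were not given in the sources used here. The authors deposited whole-number counts per gene, with no normalization. Depth ran from 14033046 to 37951183 counts per tumour, and precision for genes with few counts is limited by it.

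Counts were compared with edgeR 4.0.16 in R 4.3.3 (TMM scaling, filterByExpr, robust quasi-likelihood test), with Benjamini-Hochberg adjustment over all genes tested. DESeq2 1.42.0, other scaling, no filter, 1 fit over all tumours, pairs of number series and left-out tumours were alternatives. A gene passed at an adjusted p below 0.05, and was called where its log2 fold change was also 1 or more in size (interaction: adjusted p alone). FPKM used TMM library sizes and the union of exons of GENCODE M21 (GRCm38), to which 38 Hox genes were matched with their version and Hoxd4 without. Promoter windows came from RefSeq and were matched by symbol. Scripts were tested on simulated data. Every Hox gene that passed in any comparison or reached 1 FPKM in any treatment group was named, with up to 4 members of each other list, and the members and lists were chosen with earlier results of these data known. Replicates were numbered in the order of the records and pair no tumours. Responders were compared within Tretinoin+ICT only. The values of 1 Hox gene are not reported here, though it enters the counts, sums and medians over members.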

Additional observations from a re-analysis of the deposited data

Results flagged for a closer look

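A tumour was examined when its gap to the nearest other tumour of its group was a large part of the group's range (Dixon's 95% limit), in 33 Hox genes and 4 groups. Of 132 pairs of gene and group 7 were marked, and chance at 1 in 20 gives 6.6. Hoxc5, Hoxc6 and Hoxc9 stood high in the same tumour, Tretinoin+ICT tumour 45, the deepest library (37951183 counts), at 2.22, 13.7 and 5.55 FPKM, where the other 9 reached at most 1.79, 9.47 and 3.96 FPKM. In the Tretinoin group, Hoxa3 was at 2.62 FPKM in tumour 74 (others at most 1.91 FPKM), Hoxa6 at 5.19 FPKM in tumour 32 (others at most 3.43 FPKM) and Hoxd9 at 14 FPKM in tumour 31 (others at most 12.5 FPKM). Hoxc13 was at 0.52 FPKM in ICT tumour 82, where the others reached at most 0.0387 FPKM and where Krt25 was at 13.5 FPKM.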

How the results depend on the processing

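With the fold change minimum 0 Hox genes were called in the comparisons of treatments and of response, under each alternative that kept it. Dropping the minimum gave 8 genes in tretinoin against PBS, 5 in ICT against PBS and 10 in tretinoin+ICT against tretinoin. In tretinoin against PBS the 8 became 4 with all 39 tumours in 1 fit, 3 with series 3 against 1, and 2 with series 7 against 1 and with series 7 against 5. In tretinoin+ICT against ICT the 0 became 2 with DESeq2, 3 with all 39 tumours in 1 fit and 3 without tumours 14, 33, 63 and 82. The last setting left out no Tretinoin+ICT tumour. In ICT against PBS the 5 became 8 in 1 fit, 1 without the tumours with 5 or more Hoxc13 counts, 3 with series 8 against 5, and 0 with the other three series pairs. In tretinoin+ICT against tretinoin the 10 became 6 without the Hoxc13 tumours, 5 and 2 with series 2 and series 4 against 7, and 0 against series 3. These pairs hold 4 or 5 tumours a group. The cause was not tested for any of these changes in counts, those of the series pairs included. The interaction count of 0 became 1 with DESeq2. In responders against non-responders the 0 became 1 with DESeq2 and 0 to 1 when a tumour was left out, the 1 being without replicate 8. Hoxb3 and Hoxb4 passed in tretinoin against PBS under all 10 alternatives, at 0.67 to 0.97 and 0.67 to 0.76.

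Hoxc6 in tretinoin+ICT against ICT was -0.0003 and had values of 0.0006 with no filter, 0.0224 with series 2 against 6, 0.23 with series 4 against 6 and 0.0572 without the Hoxc13 tumours, and Hoxd9 was 0.0283 with series 4 against 6. The 27 genes at 1 FPKM or more became 29 at 0.5 FPKM and 22 at 2 FPKM. No paired analysis was possible because the labels number no replicates across treatments. Depth limits Hoxa13, Hoxb1, Hoxb13, Hoxc12 and Hoxd1, which had 0 to 6 counts in all.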
